A study of Mus musculus with 6 samples.

Results

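The genes of serine synthesis, serine breakdown and glycine cleavage were examined in livers with *Shmt2* deleted in hepatocytes and in livers that retained it. *Shmt2* encodes the mitochondrial enzyme that splits serine into glycine and a one-carbon unit. The 10 genes were chosen by their known role, with earlier results of these data known. They are *Phgdh*, *Psat1* and *Psph* of serine synthesis, *Sds* and *Srr* of serine breakdown, *Gldc*, *Amt*, *Gcsh* and *Dld* of glycine cleavage, and the aminotransferase *Agxt*. All 10 were found among the 49671 genes of the count table and all 10 passed the filter on low counts, which left 16089 genes.

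RNA-seq was run on total RNA of whole liver of males of the C57BL/6J background, 3 of them SHMT2 fl/fl (labelled WT) and 3 SHMT2 HKO (labelled KO). Both groups carry *SHMT2* alleles with loxP sites around exons 3 to 12, and the SHMT2 HKO mice also carry Albumin-Cre, which acts in hepatocytes, so that other liver cells keep the gene. All mice were weaned onto chow, were switched at the age of 4 weeks to the AMLN diet (a fatty liver diet high in fat, fructose and cholesterol), stayed on it 18 weeks, and were killed at 22 weeks after a short fast. The labels carry only a genotype and a number, so the p-values measure the spread between these samples, read here as 1 mouse each.

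Cells make serine from the glycolytic intermediate 3-phosphoglycerate in a short cytosolic route. PHGDH oxidizes 3-phosphoglycerate, PSAT1 transfers an amino group from glutamate, and PSPH removes the phosphate. SHMT1 in the cytosol and SHMT2 in mitochondria interconvert serine and glycine, and the mitochondrial glycine cleavage system breaks glycine down to carbon dioxide, ammonia and a one-carbon unit on folate. Liver also uses serine as fuel, since serine dehydratase converts it to pyruvate for glucose production, and it detoxifies glyoxylate to glycine with AGXT.

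*Phgdh* and *Psat1* were the only members called lower, and the 250 bases before their start sites are shown because they are the stretch in which shared sequence could be looked for. The sequences are from RefSeq on GRCm38.p6, from 5′ to 3′ on the strand of the gene, which is the minus strand for both genes. Capitals mark matches to TATAAA, the letters of the TATA box, and to CCAAT, wherever they lie in the window. The *Phgdh* window is chr3:98339970-98340219 and the *Psat1* window is chr19:15925060-15925309. The *Psat1* window follows the RefSeq start and lies inside the span of the gene in the GENCODE annotation, 15904678 to 15947337. The bases before the GENCODE start of *Psat1* were not searched.
Phgdh: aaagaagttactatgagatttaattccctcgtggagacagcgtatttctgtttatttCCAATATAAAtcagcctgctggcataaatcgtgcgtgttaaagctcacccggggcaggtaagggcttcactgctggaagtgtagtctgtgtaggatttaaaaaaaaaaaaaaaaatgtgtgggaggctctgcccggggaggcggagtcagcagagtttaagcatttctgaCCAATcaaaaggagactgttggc
Psat1: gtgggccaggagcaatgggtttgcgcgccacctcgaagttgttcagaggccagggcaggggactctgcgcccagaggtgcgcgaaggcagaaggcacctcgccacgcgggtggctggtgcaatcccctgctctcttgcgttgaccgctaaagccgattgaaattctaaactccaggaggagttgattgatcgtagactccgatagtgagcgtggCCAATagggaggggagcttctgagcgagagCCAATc
The *Phgdh* window held TATAAA with its first base 189 bases before the start and CCAAT at 193 and 23 bases, the farther of which shares 1 base with TATAAA. The *Psat1* window held CCAAT at 36 and 6 bases before the start. Over both strands of all 32851 windows of this length in the RefSeq table, CCAAT was found in 33.8%, TATAAA in 12.4% and GGGCGG, the GC box, in 32.7%. A second *Psat1* window, 437 bases downstream, held GGGCGG at 11 bases before its start. The *Psph* window held CCAAT at 78 and 48 bases and GGGCGG at 108, 58 and 15 bases. TGATGNAA, the core of the C/EBP-ATF response element, was in 3.45% of all windows, the E-box CACGTG in 6.02% and the cyclic AMP response element TGACGTCA in 1.55%, and none of these letters were found in the windows of the 9 members listed. *Sds* was not matched.

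Gene counts summed to between 23090837 and 34089722 per sample, and CPM below are counts scaled to library size after TMM. The floor of 3 counts equalled 0.0880 to 0.130 CPM before TMM scaling. TMM factors were 1.13 to 1.21 for the SHMT2 fl/fl and 0.802 to 0.984 for the SHMT2 HKO group. The median over genes of the shift in log2 fold change was -0.42 with library size alone in place of TMM, -0.72 when libraries were scaled to the ERCC spike-in RNAs and -0.48 when they were scaled to hepatocyte marker genes. The ERCC RNAs held 1.42% to 1.84% of all counts in the SHMT2 fl/fl group and 2.75%, 2.31% and 1.35% in SHMT2 HKO livers 1, 2 and 3, so that livers 1 and 2 lay above all SHMT2 fl/fl livers and liver 3 below them. *Shmt2* was 94.6, 109 and 93.9 CPM in the 3 SHMT2 fl/fl livers and 24.9, 28.3 and 19.3 CPM in the 3 SHMT2 HKO livers. Its log2 fold change was -2.04 (SE 0.16, edgeR adjusted p = 0.000639), and the exact permutation test over the 10 splits of 6 samples gave p = 0.1, the smallest it can give (two-sided). Every library labelled KO lay below every library labelled WT.

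Of the 10 genes, 2 were called lower and 3 higher in SHMT2 HKO livers at an adjusted p-value under 0.05, and 5 were not called. Among all 16089 genes tested, 29.0% were called, 16.5% lower and 12.5% higher. Lower calls were 56.9% of these, against 67.5% with upper-quartile scaling, 90.1% with library size alone, 92.8% with hepatocyte marker scaling and 96.3% with ERCC scaling. The groups did not overlap for 6 of the 10 genes, against 46.9% of all genes. The median log2 fold change was 0.30 over the 10 genes and 0.03 over all genes. The lower calls of *Phgdh* and *Psat1* were made in each of 16 alternative analyses, while the higher calls of *Srr*, *Gcsh* and *Dld* were made with TMM, were absent when libraries were scaled by size alone, and all 3 fold changes turned negative with ERCC scaling.

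**Figure D1:**
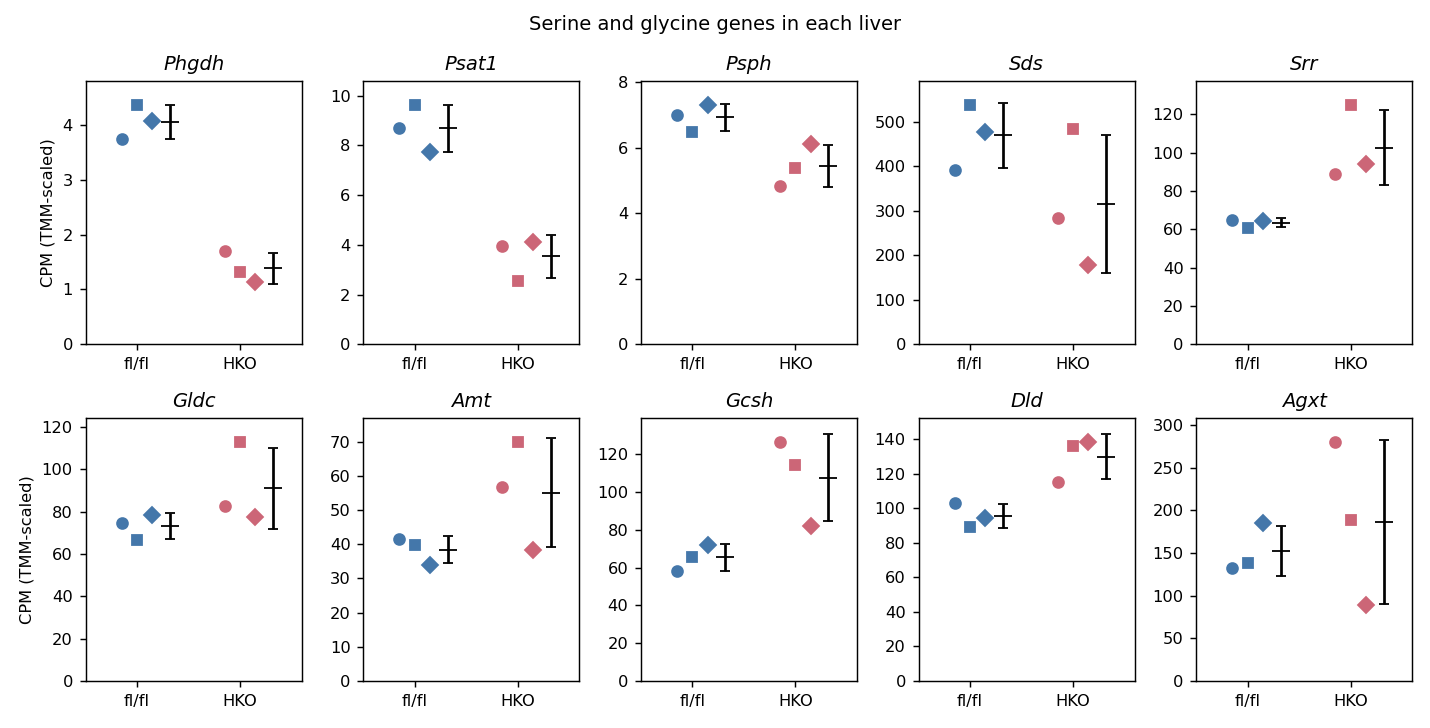
TMM-scaled CPM (y axis, from 0) of each of the 10 genes in each liver, with SHMT2 fl/fl in blue and SHMT2 HKO in red, circles, squares and diamonds for replicates 1, 2 and 3, and black bars for the mean ± SD (n = 3). For *Phgdh* the SHMT2 HKO livers sit at 1.14 to 1.70 CPM, below the 3.74 to 4.36 CPM of the SHMT2 fl/fl livers. For *Agxt* the red points spread across the blue ones. For *Sds* the red points of replicates 1 and 3 lie below all blue ones and that of replicate 2 lies among them. The higher red points of *Srr*, *Gcsh* and *Dld* are on the TMM scale, and their fold changes turn negative with ERCC scaling.

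The serine synthesis route was low in all livers, and its first and second enzymes were lower in SHMT2 HKO livers. *Phgdh* (chromosome 3, 98313170 to 98339990 of GRCm38, minus strand), whose enzyme makes the committed step, had 3.74, 4.36 and 4.07 CPM in SHMT2 fl/fl livers 1, 2 and 3. In SHMT2 HKO livers 1, 2 and 3 it had 1.70, 1.32 and 1.14 CPM, so that all lay below the lowest SHMT2 fl/fl liver. The means were 4.06 ± 0.311 and 1.39 ± 0.284 CPM (SD, n = 3), a log2 fold change of -1.55 (SE 0.25, 95% interval -2.13 to -0.97, edgeR adjusted p = 0.00405), or 2.92-fold lower. These values rest on 153, 116 and 156 counts in SHMT2 fl/fl and 40, 26 and 29 counts in SHMT2 HKO livers. *Phgdh* has 13 processed pseudogenes at least 95% identical to it over 250 bases or more. The 10 of these that have an entry in the count table held at most 2 counts in any sample. The counts are of unique hits, so reads that fit both *Phgdh* and a copy may be missing from both. The closest copy, *Gm7901*, is 98.7% identical over 1597 bases. An undercount of *Phgdh* was not tested, and it would bear on its level per length and on the ratios to *Phgdh* below.

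*Psat1* (chromosome 19, 15904678 to 15947337, minus strand), the aminotransferase of the route, had 8.71, 9.63 and 7.72 CPM in SHMT2 fl/fl livers. It had 3.95, 2.53 and 4.13 CPM in SHMT2 HKO livers, and the groups did not overlap. The means were 8.69 ± 0.954 and 3.54 ± 0.875 CPM (SD, n = 3), with a log2 fold change of -1.29 (SE 0.23, 95% interval -1.81 to -0.76, edgeR adjusted p = 0.00556), or 2.44-fold lower. SHMT2 HKO liver 2 was the lowest, at 50 counts. Over the 16 alternative analyses the log2 fold change ranged from -2.35 to -1.45 for *Phgdh* and from -1.95 to -1.10 for *Psat1*. Relative to the median gene it was -1.66 for *Phgdh* and -1.25 for *Psat1* with ERCC scaling, against -1.57 and -1.32 with TMM. Subtracting the median gene largely undoes the scaling, so this likeness is not an independent check.

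*Psph* (chromosome 5, 129765558 to 129787449, minus strand), which makes the final step to serine, had 7.0, 6.47 and 7.31 CPM in SHMT2 fl/fl livers. SHMT2 HKO livers had 4.84, 5.37 and 6.10 CPM. The groups did not overlap, but the log2 fold change of -0.35 (95% interval -0.75 to 0.05) was not called (edgeR adjusted p = 0.173). It was called only with library size in place of TMM, at -0.76 (adjusted p = 0.0332). Exons of *Psph* share 452 bases (10.4% of its exon bases) with *Cct6a* on the opposite strand. Whether the authors' counting used the strand is not given in the sources used here.

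The markers of other liver cell types moved beside these genes. For comparison, 16.5% of all genes tested were called lower and 12.5% higher with TMM. Of 5 cholangiocyte markers 5 were called lower, with a summed level of 142 to 263 CPM in SHMT2 fl/fl and 24.5 to 33.0 CPM in SHMT2 HKO livers and a median log2 fold change of -2.97. Of 6 lymphocyte markers 4 were called lower (35.4 to 52.3 against 13.3 to 22.4 CPM), of 6 stellate cell and fibroblast markers 4 were called lower (1176 to 1253 against 278 to 731 CPM), and of 6 macrophage markers 4 were called lower and 1, *Clec4f*, higher (648 to 808 against 378 to 438 CPM). Of 6 endothelial markers 2 were called higher (160 to 185 against 227 to 266 CPM), while with library size alone 1 was called higher and 2 lower, with ERCC scaling none was called and with hepatocyte marker scaling 1 was called higher. The 5 cholangiocyte and at least 3 stellate, 4 macrophage and 4 lymphocyte markers were called lower under all 5 scalings. No marker was at 0 counts in any sample. In whole liver, fewer cells of a type and less RNA per cell cannot be told apart, and the part of these markers in the change of *Phgdh* and *Psat1* was not tested.

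**Figure D2:**
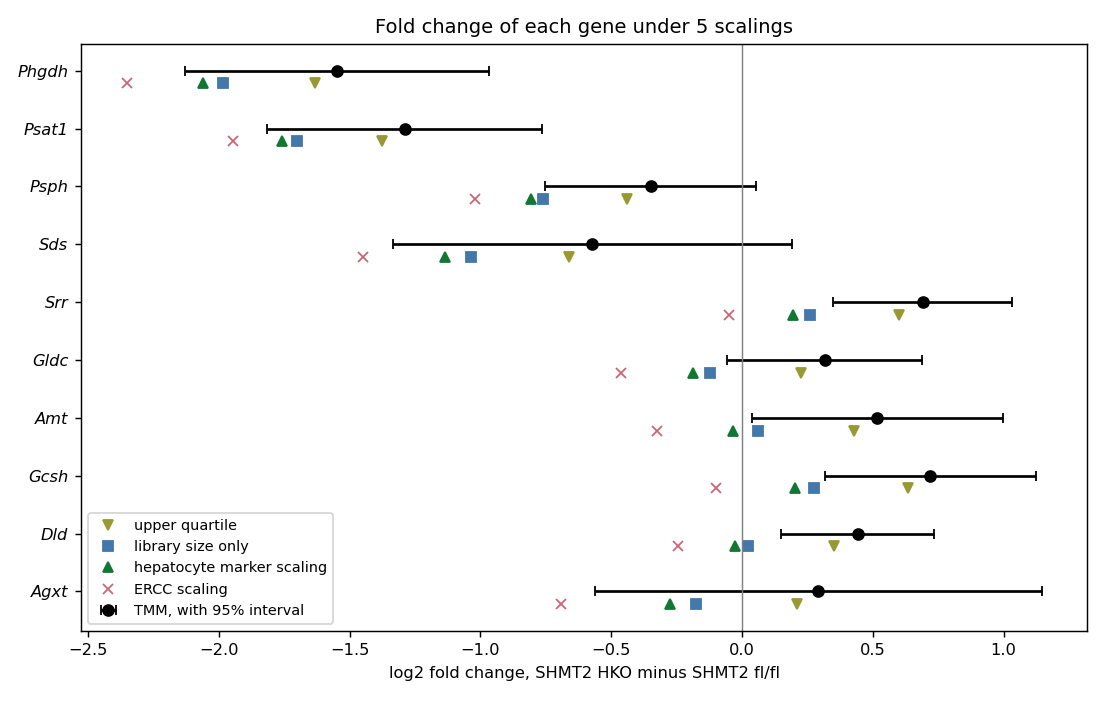
Log2 fold change of SHMT2 HKO minus SHMT2 fl/fl (x axis) for each gene, with TMM scaling as black points with 95% intervals, and with 4 other scalings of the libraries as coloured marks below them. *Phgdh* and *Psat1* lie left of 0 under all 5 scalings, while *Srr*, *Gcsh* and *Dld* lie right of 0 with TMM and left of 0 with ERCC scaling (*Dld* also with hepatocyte marker scaling, at -0.03).

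Of the serine breakdown genes, *Sds* varied most between mice and *Srr* was called. *Sds* (chromosome 5, 120476526 to 120483932, plus strand), the liver serine dehydratase, had 393, 538 and 478 CPM in SHMT2 fl/fl livers. It had 284, 484 and 179 CPM in SHMT2 HKO livers, where livers 1 and 3 lay below all SHMT2 fl/fl livers and liver 2 lay among them. The log2 fold change was -0.57 (95% interval -1.34 to 0.19, edgeR adjusted p = 0.231), and the coefficient of variation was 15.6% over the SHMT2 fl/fl livers against 49.2% over the SHMT2 HKO livers. Without SHMT2 HKO replicate 2 the log2 fold change was -1.02 and was called (adjusted p = 0.0345), and it was also called with library size in place of TMM (-1.04), with ERCC scaling (-1.45) and with hepatocyte marker scaling (-1.13). Exons of *Sds* share 360 bases with *Plbd2* and 141 bases with the antisense gene *Gm15690*, both on the opposite strand.

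*Srr* (chromosome 11, 74906359 to 74925948, minus strand) encodes serine racemase, which converts L-serine to D-serine and can also dehydrate serine. It had 65.0, 60.9 and 64.4 CPM in SHMT2 fl/fl livers and 88.8, 125 and 93.8 CPM in SHMT2 HKO livers, with no overlap. The log2 fold change was 0.69 with TMM (SE 0.15, 95% interval 0.35 to 1.03, edgeR adjusted p = 0.0115), 0.26 with library size alone (adjusted p = 0.206), 0.20 with hepatocyte marker scaling (adjusted p = 0.547) and -0.05 with ERCC scaling (adjusted p = 0.940). Relative to the median gene these values were 0.66, 0.65, 0.65 and 0.64. Subtracting the median gene largely undoes the scaling, so their likeness is not an independent check. Its call was also lost without SHMT2 fl/fl replicate 2 (adjusted p = 0.0527) or replicate 3 (adjusted p = 0.0503). Exons of *Srr* share 1240 bases, 27.2% of its exon bases, with *Tsr1* on the opposite strand, so reads of either gene may enter its count if the strand was not used.

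The glycine cleavage system has 4 proteins, of which the P protein encoded by *Gldc* takes the carboxyl group off glycine, the H protein encoded by *Gcsh* carries the remainder on its lipoyl arm, the T protein encoded by *Amt* hands the one-carbon unit to folate, and the L protein encoded by *Dld* reoxidizes the arm. All 4 genes had positive fold changes with TMM, *Gcsh* and *Dld* were called, and all 4 fold changes were negative, without a call, with ERCC scaling. With hepatocyte marker scaling 1 of the 4, *Gcsh*, was above 0. Relative to the median gene all 4 were above 0 under each of the 5 scalings. Rescaling moves most genes by similar amounts, so subtracting the median gene largely undoes it and the 5 are not independent checks. As many genes lie above the median gene as below it. *Gldc* (chromosome 19, 30098447 to 30175429, minus strand) had 74.7, 66.4 and 78.2 CPM in SHMT2 fl/fl and 82.6, 113 and 77.6 CPM in SHMT2 HKO livers. SHMT2 HKO liver 2 was the highest and liver 3 lay among the SHMT2 fl/fl livers. Its log2 fold change was 0.32 (95% interval -0.06 to 0.69, edgeR adjusted p = 0.182), and it was not called in any of the 16 alternative analyses, where the lowest adjusted p-value was 0.0963.

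*Gcsh* (chromosome 8, 116981810 to 116993537, minus strand) had 58.1, 65.8 and 72.2 CPM in SHMT2 fl/fl livers and 127, 114 and 82.3 CPM in SHMT2 HKO livers. The groups did not overlap, though SHMT2 HKO liver 3 lay near the highest SHMT2 fl/fl liver. The log2 fold change was 0.72 with TMM (SE 0.18, 95% interval 0.32 to 1.12, edgeR adjusted p = 0.0184), 0.28 with library size alone (adjusted p = 0.142), 0.20 with hepatocyte marker scaling (adjusted p = 0.479) and -0.10 with ERCC scaling (adjusted p = 0.881). The call was lost without SHMT2 fl/fl replicate 1 (adjusted p = 0.0752), without SHMT2 fl/fl replicate 2 (0.0631) and without SHMT2 HKO replicate 2 (0.0600). Its 1 near-identical pseudogene, *Gm37201*, held at most 2 counts in any sample.

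*Dld* (chromosome 12, 31331277 to 31351453, minus strand) had 103, 89.1 and 94.5 CPM in SHMT2 fl/fl livers and 115, 136 and 139 CPM in SHMT2 HKO livers, without overlap. Its log2 fold change was 0.44 with TMM (SE 0.13, 95% interval 0.15 to 0.73, edgeR adjusted p = 0.0326), 0.02 with library size alone, -0.03 with hepatocyte marker scaling and -0.24 with ERCC scaling. This was the least stable of the 5 calls, made in 5 of 16 alternative analyses. It was lost without any 1 of SHMT2 fl/fl replicates 1, 2 and 3 (adjusted p = 0.0640, 0.133 and 0.120) and without SHMT2 HKO replicate 2 (0.0937) or replicate 3 (0.0661).

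*Amt* (chromosome 9, 108296853 to 108302302, plus strand) had 41.4, 39.9 and 34.0 CPM in SHMT2 fl/fl livers. SHMT2 HKO livers had 56.8, 70.0 and 38.3 CPM, of which the lowest, in liver 3, lay among the SHMT2 fl/fl values. The log2 fold change of 0.52 (95% interval 0.04 to 1.0) was not called (edgeR adjusted p = 0.0984). Without SHMT2 HKO replicate 3 it was 0.70 and was called (adjusted p = 0.00859).

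*Agxt* (chromosome 1, 93135240 to 93145421, plus strand) converts alanine and glyoxylate to pyruvate and glycine and also acts on serine and pyruvate. It had 133, 138 and 186 CPM in SHMT2 fl/fl livers and 280, 189 and 89.2 CPM in SHMT2 HKO livers. The SHMT2 HKO livers held both the highest and the lowest value, with a coefficient of variation of 51.4% against 19.1%. The log2 fold change was 0.29 (95% interval -0.56 to 1.15, edgeR adjusted p = 0.591). Leaving out SHMT2 HKO replicates in turn made no call for *Agxt*, and its value under the 16 alternative analyses ranged from -0.69 to 0.60.

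Levels of different genes were compared per length, as counts per kilobase of exon scaled to the same total in each sample, a scale without TMM. In SHMT2 fl/fl livers *Sds* stood highest, at 788 ± 57.0 (SD, n = 3), followed by *Agxt* at 256 ± 49.8, *Gcsh* at 118 ± 10.6 and *Dld* at 74.7 ± 12. *Amt* at 45.3 ± 6.97, *Srr* at 39.9 ± 4.73 and *Gldc* at 34.5 ± 5.13 came next, with ranges that overlapped from each to the next. The serine synthesis genes were at the bottom, with *Psat1* at 5.84 ± 0.623, *Phgdh* at 4.66 ± 0.0445 and *Psph* at 4.59 ± 0.588, of which *Phgdh* and *Psph* overlapped.

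In SHMT2 HKO livers the per-length order kept *Sds* first at 373 ± 152, *Agxt* at 216 ± 86.5 and *Gcsh* at 139 ± 8.66, but the ranges of *Sds* and *Agxt* and of *Agxt* and *Gcsh* now overlapped. *Dld* was at 74.1 ± 18.6, *Srr* at 46.5 ± 9.26, *Amt* at 45.7 ± 8.15 and *Gldc* at 30.8 ± 5.33, and of these neighbours only *Srr* and *Amt* overlapped. *Psph* was highest of the synthesis genes at 2.65 ± 0.775, with *Psat1* at 1.76 ± 0.649 and *Phgdh* at 1.14 ± 0.123, and each overlapped the next.

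**Figure D3:**
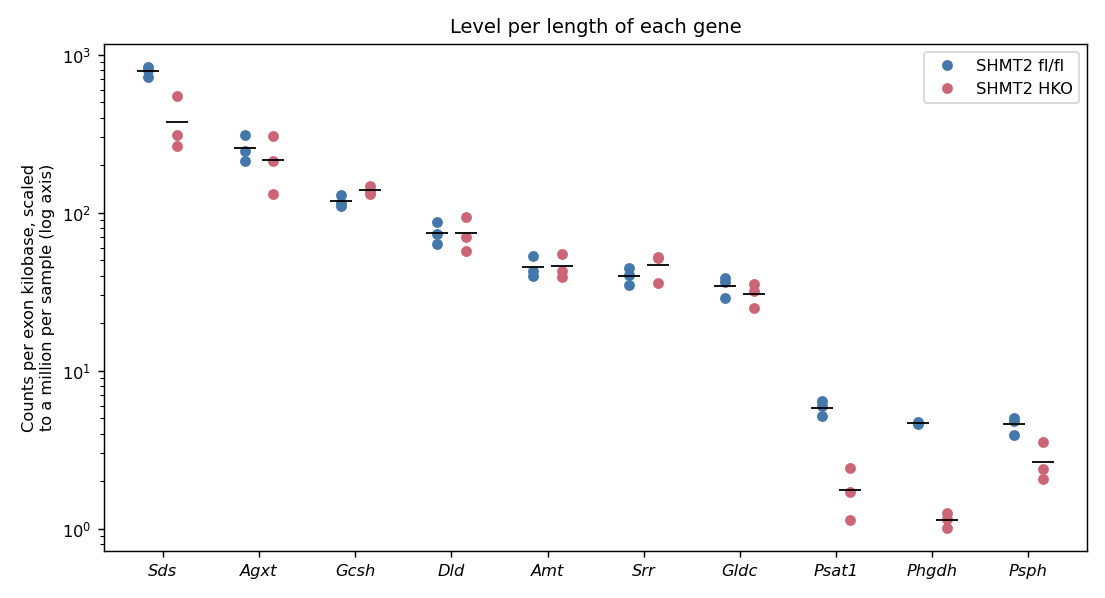
Level per length (y axis, log scale, counts per exon kilobase scaled to the same total in each sample) of each gene, with 1 point per liver and a bar at the mean of each genotype. *Sds* at 788 and *Agxt* at 256 lead in SHMT2 fl/fl livers, and the serine synthesis genes lie between 3.93 and 6.40 there and between 1.01 and 3.53 in SHMT2 HKO livers.

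Ratios between genes of the same sample do not depend on how libraries are scaled. The per-length ratio of *Gldc* to *Phgdh* was 8.15, 6.21 and 7.84 in SHMT2 fl/fl livers and 19.9, 35.1 and 27.7 in SHMT2 HKO livers, means of 7.40 ± 1.04 and 27.5 ± 7.60 (SD, n = 3). All SHMT2 HKO livers lay above all SHMT2 fl/fl livers. Within the synthesis route, *Psph* to *Phgdh* was 0.985 ± 0.118 and 2.35 ± 0.716 without overlap, while *Psat1* to *Phgdh* was 1.25 ± 0.129 and 1.53 ± 0.518 and overlapped.

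Within the cleavage system, the ratio of *Amt* to *Gldc* was 1.32 ± 0.213 and 1.5 ± 0.247 and that of *Dld* to *Gldc* was 2.17 ± 0.149 and 2.41 ± 0.491, both overlapping between genotypes. *Gcsh* to *Gldc* was 3.0, 3.82 and 3.56 in SHMT2 fl/fl livers and 5.92, 3.89 and 4.09 in SHMT2 HKO livers, so that the highest of the former, 3.82, lay just below the lowest of the latter, 3.89. *Sds* to *Gldc*, a breakdown enzyme of serine against one of glycine, was 18.9, 29.1 and 22.0 in SHMT2 fl/fl livers and 12.4, 15.4 and 8.28 in SHMT2 HKO livers, without overlap. *Gldc* to *Shmt2*, which includes the deleted gene, was 0.380 ± 0.0605 and 1.93 ± 0.204.

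**Figure D4:**
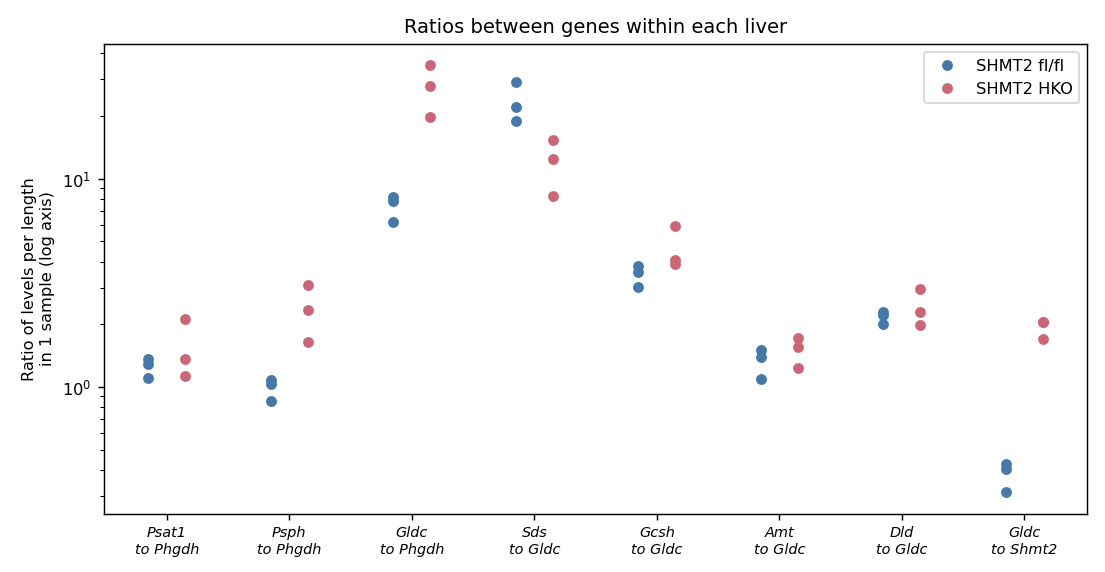
Ratio of the per-length levels of pairs of genes within the same liver (y axis, log scale), with 1 point per liver, SHMT2 fl/fl in blue and SHMT2 HKO in red. The red points lie above the blue ones for *Gldc* to *Phgdh* (19.9 to 35.1 against 6.21 to 8.15), below them for *Sds* to *Gldc*, and across them for *Psat1* to *Phgdh*, *Amt* to *Gldc* and *Dld* to *Gldc*.

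The other genes listed were 44 that handle serine, glycine, glyoxylate or the lipoyl group or encode partners of DLD in other complexes. Of these 42 were tested, and 22 were called higher, 2 lower and 18 neither. Over all genes 12.5% were called higher and 16.5% lower. The median log2 fold change was 0.65, against 0.03 over all genes. Partners of DLD made up 7 of the 22 higher calls, and the lists were chosen with earlier results of these data known. The higher calls depend on the scaling, since 6 of the 22 were called with library size alone, 3 with hepatocyte marker scaling and 0 with ERCC scaling, where 13 of the 22 turned negative. With 1 sample left out at a time, 10 of the 22 higher calls were made all 6 times, those of *Shmt1*, *Gcat*, *Dmgdh*, *Glyat*, *Alas1*, *Ptdss1*, *Hao1*, *Glyctk*, *Pdha1* and *Pdhx*. *Baat* and *Pdhb* lost theirs without SHMT2 fl/fl replicate 3, *Dbt* without SHMT2 fl/fl replicate 1 and *Pipox* without SHMT2 fl/fl replicate 1 or 2, and the other 8 were lost in at least 4 of the 6. *Tdh* and *Dao* did not pass the filter.

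Among enzymes that interconvert or break down serine and glycine, *Shmt1*, the cytosolic counterpart of *Shmt2*, had 84.5, 91.1 and 79.9 CPM in SHMT2 fl/fl and 195, 262 and 138 CPM in SHMT2 HKO livers. Its log2 fold change was 1.22 (edgeR adjusted p = 0.00585), and 0.39 without a call with ERCC scaling. *Gcat*, which cleaves 2-amino-3-ketobutyrate to glycine, had a log2 fold change of 0.90 (edgeR adjusted p = 0.0101), and 0.10 without a call with ERCC scaling. *Sdsl*, a close relative of *Sds*, was not called (-0.42, edgeR adjusted p = 0.109). Of 4 genes of the route that loads methyl groups on glycine and takes them off again, *Dmgdh* (1.32, edgeR adjusted p = 0.00261) and *Pipox* (0.85, edgeR adjusted p = 0.0120) were called higher with TMM, and with ERCC scaling neither was (0.49 and 0.01).

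Of 5 genes that use glycine, 4 were called higher with TMM, against 12.5% of all genes. *Gamt* and *Baat* turned negative with ERCC scaling. *Alas1*, the first enzyme of heme synthesis, had a log2 fold change of 0.95, *Glyat*, which conjugates acyl groups to glycine, 0.91, *Gamt* of creatine synthesis 0.86 and *Baat*, which conjugates bile acids, 0.69. *Gatm*, which acts before *Gamt* in creatine synthesis, was not called (-0.52, edgeR adjusted p = 0.0765). Of 5 genes that use serine, *Ptdss1*, a phosphatidylserine synthase, was the 1 called higher (0.58, edgeR adjusted p = 0.0103), and it turned negative with ERCC scaling (-0.12).

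All 5 glyoxylate genes were called higher with TMM, against 12.5% of all genes. With ERCC scaling *Hao1* alone stayed above 0 (0.45), without a call. *Hao1*, the glycolate oxidase, had 126, 114 and 125 CPM in SHMT2 fl/fl and 352, 226 and 262 CPM in SHMT2 HKO livers, which is 1.2 on the log2 scale (edgeR adjusted p = 0.00295). *Grhpr*, which reduces glyoxylate, had 0.76, *Hoga1* 0.68, *Agxt2* 0.66 and *Glyctk* 0.65. *Grhpr* kept its call in 1 and *Hoga1* and *Agxt2* in 2 of the 6 analyses with 1 sample left out. *Agxt*, which acts on glyoxylate too, was not called.

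DLD also serves the pyruvate, 2-oxoglutarate and branched-chain ketoacid dehydrogenase complexes. Of 9 genes for the other subunits of these complexes, 7 were called higher with TMM, against 12.5% of all genes. With library size alone 0 were called higher, and 7 of the 9 were negative with ERCC scaling. On the TMM scale the groups did not overlap for all 9, against 46.9% of all genes. *Dlat* (0.76), *Dbt* (0.73), *Pdha1* (0.69), *Pdhb* (0.67), *Pdhx* (0.65) and *Bckdhb* (0.57) had the largest log2 fold changes of the called genes, and 1 more was called. *Ogdh* and *Dlst* of the 2-oxoglutarate complex were not called (edgeR adjusted p = 0.0532 and 0.0950). For the lipoyl group that GCSH carries, *Lias*, the lipoic acid synthase, was called higher with TMM (0.48, edgeR adjusted p = 0.0287) and was negative with ERCC scaling (-0.30), while *Lipt2*, which attaches octanoate to GCSH, was called lower (-0.71, edgeR adjusted p = 0.0286) and lay below 0 under all 5 scalings. With 1 sample left out, *Lias* was called in 1 and *Lipt2* in 2 of the 6 analyses.

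Of 8 transporter genes, 1 was called, against 29.0% of all genes tested. *Slc1a5*, a carrier of small neutral amino acids including serine, had 20, 21.1 and 19.9 CPM in SHMT2 fl/fl and 10.4, 9.01 and 9.60 CPM in SHMT2 HKO livers, with a log2 fold change of -1.07 (edgeR adjusted p = 0.00141). It was called lower under all 5 scalings and with each sample left out. *Slc1a4*, a serine carrier of the same family, had a log2 fold change of -0.80 (edgeR adjusted p = 0.0545) and was called lower under the other 4 scalings (edgeR adjusted p from 0.0113 to 0.0386). *Sfxn1*, the mitochondrial serine carrier, had 0.23 (edgeR adjusted p = 0.229), and -0.48 without a call with ERCC scaling.

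*Phgdh*, *Psat1* and *Psph* are known targets of ATF4, the transcription factor of the integrated stress response. Of 12 other targets or members of that response, 11 were tested, of which 5 were called lower and 6 were not called. Among all genes tested 16.5% were called lower with TMM, and this list was chosen with earlier results of these data known. *Slc7a11*, the cystine carrier, had a log2 fold change of -1.87, *Asns*, the asparagine synthetase, -1.47, *Trib3* -1.24, *Mthfd2*, a mitochondrial folate enzyme, -1.19 and *Sesn2* -0.63. Of these, *Sesn2* was not called with ERCC scaling, and the other 4 were called lower under all 5 scalings. The largest 2 changes rest on few counts, 20, 5 and 12 for *Slc7a11* and 46, 13 and 73 for *Asns* in SHMT2 HKO livers 1, 2 and 3. With 1 sample left out, *Trib3* was called all 6 times, while *Asns* lost its call without any SHMT2 fl/fl replicate, *Mthfd2* without SHMT2 fl/fl replicate 1 or 3 or SHMT2 HKO replicate 2, and *Slc7a11* and *Sesn2* in 4 of the 6 analyses. *Atf4* itself had 102, 91.7 and 104 CPM in SHMT2 fl/fl and 132, 110 and 106 CPM in SHMT2 HKO livers, with a log2 fold change of 0.23 (edgeR adjusted p = 0.230), and -0.21 with library size alone, -0.27 with hepatocyte marker scaling and -0.54 with ERCC scaling, none of them called. *Chac1*, another target, went the other way at 1.23 without a call (edgeR adjusted p = 0.0518). The letters of the C/EBP-ATF element core were not found in the *Phgdh* and *Psat1* windows shown above, and were in 3.45% of all windows. Only exact matches in the 250 bases before the RefSeq start were searched, and action of ATF4 on these genes was not tested.

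**Figure D5:**
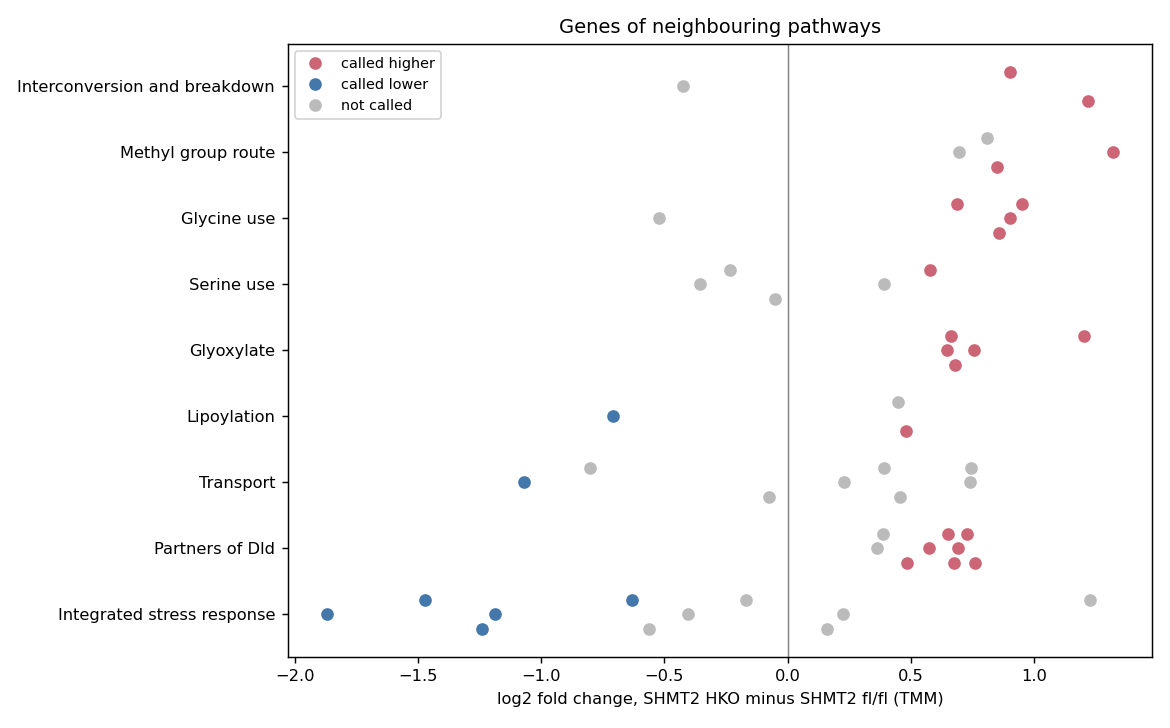
Log2 fold change with TMM (x axis) of each tested gene of 9 lists (rows), 1 point per gene, shifted vertically only for legibility, red where called higher, blue where called lower and grey where not called. The 5 glyoxylate genes and 7 of 9 partners of DLD are red and the stress response list has 5 blue points, and of the 22 red points 13 turn negative with ERCC scaling.

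Of the zonation markers of hepatocytes, mainly the pericentral ones differed between genotypes. For comparison, 12.5% of all genes tested were called higher with TMM. Of 6 pericentral markers 5 were called higher with TMM and 3 with ERCC scaling, with a summed level of 1956 to 3329 CPM in SHMT2 fl/fl and 7392 to 11273 CPM in SHMT2 HKO livers. Of 6 periportal markers 1, *Cyp2f2*, was called higher with TMM and none with ERCC scaling (7406 to 9280 against 7592 to 11815 CPM). Of 8 general hepatocyte markers 2 were called higher with TMM (59280 to 73301 against 70348 to 104286 CPM), and with ERCC scaling all 8 were below 0. Their part in the values of the serine and glycine genes was not tested.

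As a description of shape, the genes whose log2 CPM ran most like that of *Phgdh* over the 6 samples were *Wnt4*, *Gna15* and *Trabd2b* (Pearson r = 0.999, 0.999 and 0.997). For *Psat1* they were *Myo5c*, *B4galt6* and *Traf3ip3* (r = 0.999, 0.999 and 0.998), and for *Gcsh* they were *Fah*, *D630039A03Rik* and *Ndufa9* (r = 0.999, 0.998 and 0.998). With 6 samples in 2 groups, many genes reach such values, since r was at least 0.99 for 30, 60 and 50 genes. The 6 points share the genotype difference and the TMM scaling.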

How the data were processed

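RNA-seq of mouse liver was analysed for 3 SHMT2 fl/fl and 3 SHMT2 HKO mice on the AMLN diet. The authors trimmed reads with Trimmomatic 0.36, aligned them to GRCm38 with ERCC sequences by STAR 2.5.2b, and, per the labels, featureCounts of Subread 1.5.2 was used. The values deposited by the authors are unnormalized counts of unique hits per gene. Overlapping genes and, unless the strand was used, opposite strands can share reads.

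Library sizes and tests exclude the 92 ERCC entries. The GENCODE annotation of GRCm38 lacked 259 of the 49671 gene IDs. Genes were filtered with filterByExpr, scaled by TMM and tested for genotype with the two-sided quasi-likelihood F test of edgeR 4.0.16 (robust dispersions) in R 4.3.3, with Benjamini-Hochberg adjustment over 16089 genes. An adjusted p-value under 0.05 was a call. DESeq2 1.42.0, limma-voom (limma 3.58.1), 4 other scalings, 2 other filters, non-robust dispersions, a replicate block and leaving out each sample in turn were alternatives. Depth was 23090837 to 34089722 gene counts per sample, and same-genotype samples differed by more than sampling noise (chi-square per gene 27.0 to 159). Floors and counts cover counting error only.

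The members, gene lists and tests were chosen with earlier results of these data known. Named genes are the 10 members, *Shmt2*, the called genes of each list (at most 6, by absolute fold change), and the 3 most alike genes of the 3 members with the largest called changes. Uncalled genes of the lists, single marker genes and the letters of the TATA, CCAAT and GC boxes were added after values were seen. Motifs were searched in the 250 bases before each RefSeq start, without the bases after it. Of 106 listed symbols, 1 had no entry. Pseudogene copies were found with BLAST 2.17.0. On counts simulated for 16089 genes, of which 15700 were tested, 81 of 100 genes changed 4-fold and 44 of 100 changed 2-fold were called, with 13 unchanged genes among 138 calls. No other genes were changed, while 29.0% of genes were called in the data, so these shares need not hold for the data. Any changed gene that failed the filter counted as not called.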

Additional observations from a re-analysis of the deposited data

How the results depend on the processing

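*Phgdh*, *Psat1* and *Shmt2* were called lower in all 16 alternative analyses, with log2 fold changes of -2.35 to -1.45, -1.95 to -1.10 and -2.82 to -1.92. The 4 other scalings all moved the median gene down, so calls kept lower under them are less tested than higher calls. Of the members called higher, the fold changes that turned negative were those of *Srr* (-0.051), *Gcsh* (-0.10) and *Dld* (-0.24) with ERCC scaling and of *Dld* (-0.029) with hepatocyte marker scaling. The number of members called higher, 3 with TMM, was 0 with library size alone, 0 with ERCC scaling, 0 with hepatocyte marker scaling and 0 to 3 with 1 sample left out. The number called lower, 2 with TMM, was 4 with library size alone, 3 with ERCC scaling, 3 with hepatocyte marker scaling and 2 to 3 with 1 sample left out. With library size alone, ERCC scaling and hepatocyte marker scaling, the genes called higher among all tested numbered 539, 107 and 283 against 2012, and those among related genes 6, 0 and 3 against 22. With library size alone 4923 genes were called lower against 2651, and related genes called lower numbered 14, or 12 with hepatocyte marker scaling, against 7. Counts of related genes in this section include the stress response list, which holds 5 of the 7 lower calls with TMM. With 1 sample left out, all genes called higher ranged from 805 to 2521 and lower from 1621 to 3076, and related genes from 12 to 27 and from 2 to 9.

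Same-numbered samples showed no shared deviation over genes (correlations of -0.0459, 0.0125 and -0.0766). With 3 samples per group this cannot show whether the numbers pair the mice. With the replicate block 3584 genes were called in place of 4663, 2 members higher and 2 lower, and the change of *Dld* was 0.44 (adjusted p = 0.0823). *Phgdh*, the member with the fewest counts, rests on 26 to 40 per SHMT2 HKO liver.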
